A study of Mus musculus with 12 samples.

Results

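Hedgehog pathway genes were examined one by one in mouse cochlear epithelium, which lines the hearing organ, with and without Esrp1. The 9 genes are the ligands Shh and Ihh, the receptor and surface genes Ptch1, Smo, Gas1 and Hhip, and the transcription factors Gli1, Gli2 and Gli3. They were chosen by symbol, without use of measured values, and are 9 of the 22869 gene symbols in the deposited table, each with 1 transcript row. Transcript abundance was measured by RNA-seq at embryonic day 16.5, and the 2 cochleae of each embryo were pooled. There were 3 wild-type (Esrp1+/+) embryos, called control, and 3 Esrp1-/- embryos, called knockout, all of the strain C57BL/6, and each embryo was sequenced as 2 libraries whose reads stand in 1 column. ESRP1 is an epithelial splicing regulator. The labels give neither the part of the gene that was deleted nor whether embryos of a genotype came from separate litters, so p-values measure the spread between these embryos.

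Hedgehog ligands bind the receptor PTCH1, which otherwise holds the membrane protein SMO inactive at the primary cilium. Active SMO turns the GLI proteins from repressors into activators, and Gli1, Ptch1 and Hhip are classical GLI targets, so that their transcripts are commonly read as the output of the pathway. In the cochlea, SHH made by spiral ganglion neurons is known to act on the neighbouring duct and to delay the differentiation of hair cells, while IHH is best known from growing cartilage.

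The genes lie apart in the genome (mm10). Gas1 has a single exon and, at chr13:60174405-60177535, shares its chromosome with Ptch1 (chr13:63508328-63573460) and Gli3 (chr13:15463723-15730026). Ihh (chr1:74945315-74951672) and Gli2 (chr1:118834061-119054405) are on chromosome 1, and Shh (chr5:28456840-28467101), Smo (chr6:29735497-29761366), Hhip (chr8:79965850-80058060) and Gli1 (chr10:127329882-127341579) are on chromosomes of their own. Each gene was measured by 1 RefSeq transcript row, and splice forms of these genes were not compared.

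Read totals on genes ranged from 12547301 in knockout 1 to 21568517 in control 2. Esrp1, the deleted gene, was at 102 to 197 CPM (reads scaled to a common library size between embryos by the TMM method) in controls and 27.2 to 39.1 CPM in knockouts (log2 fold change -2.05 with an SE of 0.26, adjusted p = 0.0354 by edgeR's quasi-likelihood test). In all, 22 of 14717 genes passed that test at an adjusted p of 0.05, and the count was 30 without control 1, 13 without control 2, 0 without control 3, 12 without knockout 1, 0 without knockout 2 and 4 without knockout 3. The Y-linked Ddx3y was at 94.97 and 81.9 CPM in knockouts 2 and 3 and under 1 CPM in the other 4 embryos, so sex differed between embryos. Sex was therefore unbalanced between the genotypes in the fits with all 6 embryos. In fits without knockout 1, sex and genotype cannot be told apart. Knockout 1 stood apart from the rest, with the lowest value of the 6 embryos in 28.8% of the genes tested and the highest in 29.1%. Epithelial markers were present (10 of 10 detected, summed 5465 to 11027 CPM in controls and 11982 to 15683 CPM in knockouts, led by Oc90). Markers of other tissues were present too, among them all 15 spiral ganglion neuron genes (768 to 1466 and 891 to 1203 CPM) and all 14 genes of the periotic mesenchyme (2862 to 4094 and 3695 to 4026 CPM). The neuron list includes Gata3 and Isl1, which the cochlear epithelium itself is known to express. In such bulk tissue, fewer cells of a type and less RNA per cell cannot be told apart.

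None of the 8 Hedgehog genes with enough reads for testing changed between genotypes in edgeR's test, where the background was 0.149% of all genes (0.0815% higher and 0.0679% lower in knockouts). DESeq2 also called 0 of them, against 1.04% of all genes with an adjusted p. At an unadjusted p under 0.05, 1 of the 8 was found (Gas1, higher), against 4.77% of all genes (2.87% higher). Gas1 was likewise the only one of the 8 whose 3 knockouts all lay on one side of the 3 controls, against 9.84% of all genes (4.44% with the knockouts lower). The median log2 fold change of the 8 genes was -0.05, beside 0.00 over all genes. Ihh had too few reads for the test and is described by its reads.

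The 6 genes with the highest levels stood in the same order in all 6 embryos, and Hhip and the 2 ligands lay below them. On the deposited FPKM scale, which corrects for transcript length and library size, Gas1 was highest at 27.2 to 65.8, followed by Smo at 22.5 to 25.7, Gli3 at 7.501 to 12.7, Ptch1 at 4.36 to 7.48, Gli2 at 2.44 to 4.02 and Gli1 at 1.32 to 2.14. Each of these 6 exceeded the next in all 6 embryos, and no ranges of neighbours overlapped down to Gli1, which in turn lay above Hhip (0.190 to 0.637). Hhip and Shh (0.0629 to 0.319) overlapped in range, although Hhip was the higher in each of the 6 embryos. Shh and Ihh (0.0104 to 0.261) overlapped as well, with Shh the higher in 5 of 6. In knockout 2, Ihh (0.261) was above both Hhip (0.256) and Shh (0.252). Among the tested genes, mean FPKM stood at percentile 96.2 for Gas1, 91.6 for Smo, 27.1 for Gli1, 8.75 for Hhip and 3.98 for Shh.

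**Figure D1:**
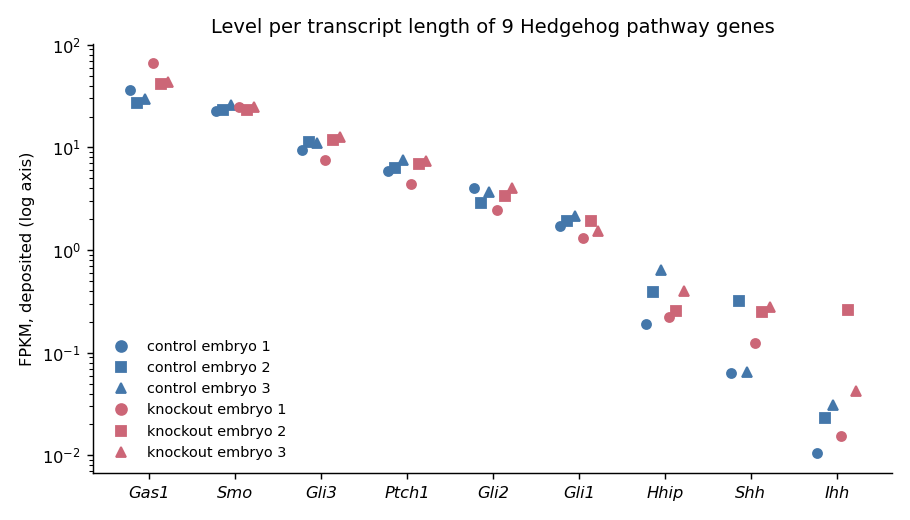
FPKM on a log axis for the 9 genes in each of the 6 embryos, controls in blue and knockouts in red, the marker shape giving the embryo number. Values fall from Gas1 (27.2 to 65.8) to Ihh (0.0104 to 0.261), and the ranges of neighbours overlap only from Hhip downwards.

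Shh, the ligand known from spiral ganglion neurons, was detected in every embryo but with few reads. The controls had 7, 43 and 8 reads and the knockouts 10, 31 and 29 (embryos 1, 2 and 3 in each group), which is 0.439, 1.95 and 0.431 CPM against 0.762, 1.66 and 1.94 CPM. Control 2 therefore stood with knockouts 2 and 3, while controls 1 and 3 and knockout 1 were low, and the groups overlapped. The exact 95% counting intervals of control 2 (1.41 to 2.63 CPM) and control 3 (0.186 to 0.849 CPM) did not meet. The log2 fold change was 0.60 ± 0.65 (SE), with a 95% interval of -0.88 to 2.09 (adjusted p = 0.994, edgeR). The summed reads gave a ratio of knockout over control of 1.46, and of 3.45 (95% counting interval 1.95 to 6.48) without control 2, which held 43 of the 58 control reads. That interval leaves out the spread between embryos, and edgeR's adjusted p without control 2 was 0.934. With any other embryo left out the ratio was 1.14 (without control 3) to 1.74 (without knockout 1).

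Neuron transcripts also varied between embryos. Of the 15 spiral ganglion neuron genes, 11 were highest in control 2, where 13.2% of all genes tested were highest. This was not particular to neurons, since all 5 endothelial and all 3 erythroid genes detected were highest there too. The neuron list summed to 1466 CPM in control 2, 768 CPM in control 1 and 1066 CPM in control 3. Gata3 (451 CPM) and Isl1 (143 CPM), also known from the epithelium, were highest in control 1 and made up much of its sum. The neurofilament gene Nefm was at 21.7, 284 and 146 CPM in controls 1, 2 and 3 and 184, 260 and 191 CPM in the knockouts. Control 3, low in Shh, thus had more Nefm than control 1, where Shh was similarly low. The part of neuron content in the Shh values was not tested.

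Ihh, the ligand of growing cartilage, was close to absent in 5 embryos and present in 1. The controls had 1, 3 and 3 reads and the knockouts 1, 28 and 4, so that knockout 2 held 84.8% of the knockout reads. Its level in knockout 2 was 1.503 CPM (exact 95% counting interval 0.999 to 2.17), and the other 5 embryos were at 0.0627 to 0.267 CPM. The summed reads had a ratio of knockout over control of 5.71 (95% counting interval 2.48 to 15.3), which was 1.44 (0.360 to 5.26) without knockout 2. Fitted with no count filter, edgeR put the log2 fold change at 2.31 ± 1.02 (SE), with an adjusted p of 0.977. The ratio rested on 1 embryo.

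The same embryo carried skeletal transcripts. Of 12 genes listed for otic capsule cartilage, 8 were highest in knockout 2, as were 4 of 6 genes of bone forming cells. Of all genes tested, 7.69% were highest in that embryo. That share is for an unlike set, since Matn3, Col10a1, Comp, Runx3 and Ibsp, all highest in knockout 2, were not among the genes tested. Col10a1, the collagen of hypertrophic cartilage, was at 44.2 CPM in knockout 2 and at 0 to 0.162 CPM in the other 5 embryos. The bone sialoprotein gene Ibsp was at 15.5 CPM against 0.381 to 1.13 CPM, and Comp, a cartilage matrix gene, at 8.64 CPM against 0.0667 to 0.762 CPM. These 3 were picked from the lists after their values were seen. The summed level of the whole cartilage list did not set knockout 2 apart (1896 CPM there, 1469 to 2369 CPM in controls, 1696 to 2167 CPM in knockouts), since its most abundant genes, Lect1 (706 to 1257 CPM) and Col9a1 (501 to 687 CPM), were highest in control 1. The bone list summed to 115 CPM in knockout 2, 16.8 to 98.3 CPM in controls and 65.1 and 75.0 CPM in the other two knockouts, and its osteocalcin gene Bglap was at 0 in all 6. The part of skeletal tissue in the Ihh reads was not tested.

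**Figure D2:**
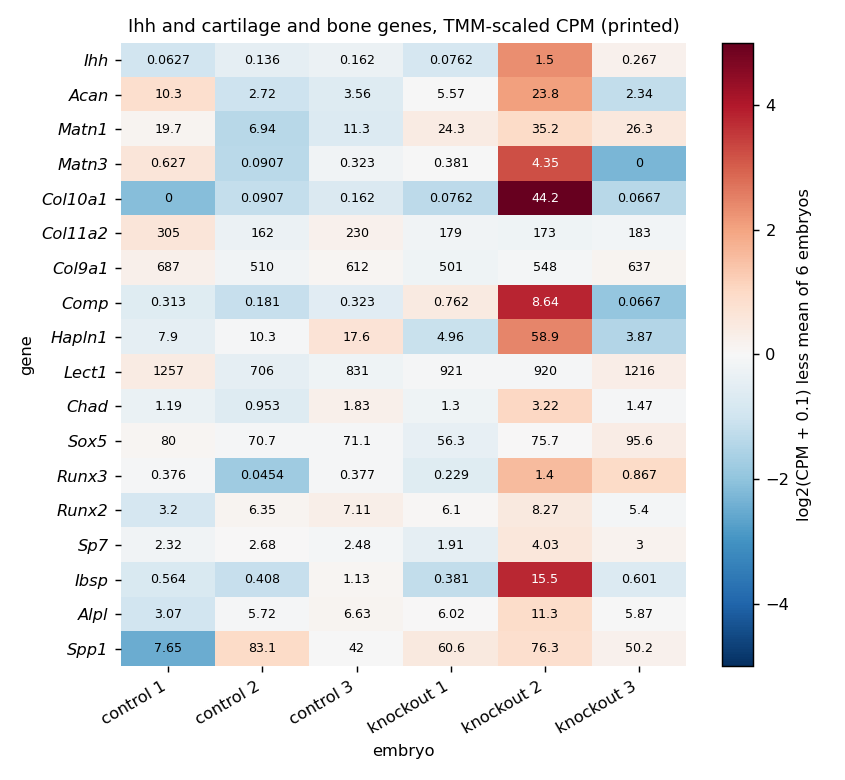
Level of Ihh and of the cartilage and bone genes detected, with the TMM-scaled CPM printed in each cell and colour giving how far log2(CPM + 0.1) lies from its average over embryos. Knockout 2 is the embryo with most Ihh (1.503 CPM), Col10a1 (44.2), Ibsp (15.5) and Comp (8.64).

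Gas1 encodes a membrane protein that binds SHH together with PTCH1 and promotes signalling. It was at 303, 198 and 222 CPM in controls 1, 2 and 3 and at 464, 308 and 352 CPM in knockouts 1, 2 and 3. Every knockout lay above every control, although knockout 2 exceeded control 1 by little. The log2 fold change was 0.64 ± 0.21 (SE, 95% interval 0.16 to 1.11), with an unadjusted p of 0.0147 and an adjusted p of 0.687 in edgeR, so the difference did not pass. By exact permutation (two-sided) p was 0.10, the lowest value possible with 3 embryos a group. Groups not overlapping with the knockouts higher were found in 5.4% of all genes. In the authors' deposited table, Gas1 had a log2 fold change of 0.56 with an FDR of 0.471. Over 15 alternative settings the log2 fold change ranged from 0.45 (without knockout 1) to 0.97 (with Xist as a covariate). It passed in 1 of them, without both embryos numbered 1 (0.64 ± 0.10, SE, adjusted p = 0.0276, edgeR), where 1.07% of all genes passed. In that setting, as without knockout 1 alone, Xist-expressing controls stood against Ddx3y-expressing knockouts, so that sex and genotype cannot be told apart. The summed level of the 10 epithelial markers was also higher in every knockout (11982 to 15683 CPM) than in any control (5465 to 11027 CPM), with 0 of the 10 passing in edgeR and 2 higher in DESeq2. That sum was led by Oc90 (mean 7106 CPM), and the 10 genes went both ways, with 6 positive and 4 negative log2 fold changes and 5 of them highest in control 1. Its part in the Gas1 values was not tested. The periotic mesenchyme list summed to 3695 to 4026 CPM in knockouts, within the 2862 to 4094 CPM of controls.

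The other surface genes showed no such separation. Smo, which encodes the signal transducer at the cilium, was the steadiest of the 9, at 218, 195 and 224 CPM in controls and 200, 204 and 229 CPM in knockouts. Knockout and control differed by -0.01 ± 0.13 on the log2 scale (SE, adjusted p = 0.996, edgeR), and the 95% interval of -0.29 to 0.28 corresponds to a knockout level between 0.816 and 1.22 times control. Ptch1, receptor and target of the pathway, was at 67.3, 63.0 and 76.3 CPM in controls and 42.2, 70.8 and 81.2 CPM in knockouts. Knockout 1 was below and knockout 3 above all controls (log2 fold change -0.09 ± 0.22, SE, 95% interval -0.60 to 0.42, adjusted p = 0.994, edgeR). Without knockout 1 the value was 0.13, and in that setting sex and genotype cannot be told apart. Hhip, a secreted and membrane-bound decoy for the ligands and likewise a target, was at 4.58, 8.21 and 13.6 CPM in controls and 4.65, 5.53 and 9.47 CPM in knockouts. The groups overlapped widely (log2 fold change -0.43 ± 0.42, SE, adjusted p = 0.994, edgeR). Without control 3, the highest embryo, the value was 0.03. In the other 14 of 15 alternatives it was negative, down to -0.94 with Xist as a covariate.

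The proximal promoters of the surface genes are shown because Ptch1 and Hhip are targets of GLI proteins, whose consensus site reads GACCACCCA, and because Gas1 is the gene whose groups did not overlap. The windows run from 250 bases before to 50 bases after the RefSeq start (GRCm38.p6), at chr13:60177486-60177785 for Gas1, chr13:63565686-63565985 for Ptch1 and chr8:80057959-80058258 for Hhip, all on the minus strand. For Ptch1 the window belongs to a start inside the gene interval given above, whose minus-strand end is at 63573460, and no window at that end was examined. The capitals mark the core CCACCC of the consensus on either strand, which can occur with or without the flanking letters.
Gas1: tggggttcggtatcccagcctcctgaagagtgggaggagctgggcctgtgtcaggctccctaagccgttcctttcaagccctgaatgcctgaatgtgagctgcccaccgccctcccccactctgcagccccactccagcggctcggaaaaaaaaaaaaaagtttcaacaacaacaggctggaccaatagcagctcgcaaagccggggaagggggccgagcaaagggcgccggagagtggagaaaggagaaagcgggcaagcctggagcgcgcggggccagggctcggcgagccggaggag
Ptch1: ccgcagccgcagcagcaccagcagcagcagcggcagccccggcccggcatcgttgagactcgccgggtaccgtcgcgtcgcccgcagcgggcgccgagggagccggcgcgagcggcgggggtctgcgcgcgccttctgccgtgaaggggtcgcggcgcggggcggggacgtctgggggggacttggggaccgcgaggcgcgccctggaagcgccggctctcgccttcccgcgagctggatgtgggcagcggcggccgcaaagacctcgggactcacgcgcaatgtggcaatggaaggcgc
Hhip: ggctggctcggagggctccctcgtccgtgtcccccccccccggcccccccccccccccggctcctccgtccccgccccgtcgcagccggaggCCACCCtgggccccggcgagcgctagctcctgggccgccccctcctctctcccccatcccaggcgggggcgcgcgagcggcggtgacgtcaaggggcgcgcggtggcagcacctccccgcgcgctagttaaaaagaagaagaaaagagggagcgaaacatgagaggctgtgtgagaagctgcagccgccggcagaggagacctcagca
The full consensus GACCACCCA or its reverse complement TGGGTGGTC occurred in 0 of the 7 member promoters found in the table (Gas1, Gli2, Gli3, Hhip, Ihh, Ptch1 and Smo) and in 0.253% of the 32851 promoter windows. The core CCACCC or GGGTGG occurred in 5 of the 7 members, in 31.5% of all windows and in 34% of all genes with a window. The 7 member windows were 62.3 to 76.3% G and C, above the median of all windows, and these shares were not matched for that. In Hhip its match starts 158 bases before the start. The Ptch1 window is very rich in G and C (76.3%, median of all windows 52.7%), and its start coincides with that of the counted transcript in the GENCODE annotation (position 63565735). Absence of the letters from these windows says nothing of sites elsewhere.

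The GLI genes encode the transcription factors on which the pathway acts. Gli1 is an activator made in response to the signal, Gli2 is the main primary activator, and Gli3 acts largely as a repressor where no signal arrives. Gli1 was at 16.7, 16.4 and 18.8 CPM in controls and 10.9, 16.6 and 14.5 CPM in knockouts. Knockouts 1 and 3 lay below all controls and knockout 2 between controls 2 and 1 (log2 fold change -0.30 ± 0.19, SE, 95% interval -0.74 to 0.14, adjusted p = 0.994, edgeR). In all 15 alternative settings the value stayed negative. It ranged from -0.68 (with Xist as a covariate) to -0.16 (without knockout 1, where sex and genotype cannot be told apart). The adjusted p was at least 0.136 over these settings. An exact permutation test on CPM gave p = 0.20.

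Gli2 was at 71.8, 45.2 and 59.2 CPM in controls and 36.6, 53.7 and 69.5 CPM in knockouts (log2 fold change -0.14 ± 0.25, SE, adjusted p = 0.994, edgeR). Both groups spanned nearly the same range, and the value was 0.06 without knockout 1 and 0.23 without both embryos numbered 1. Gli3 was at 193, 201 and 205 CPM in controls, the narrowest control spread of the GLI genes, and at 129, 219 and 250 CPM in knockouts. Knockout 1 was below and knockouts 2 and 3 above all controls, and the log2 fold change was 0.00 ± 0.22 (SE, 95% interval -0.51 to 0.50, adjusted p = 1.00, edgeR). Without knockout 1 it was 0.22 (adjusted p = 0.999, edgeR). For both genes, sex and genotype cannot be told apart in the settings without knockout 1.

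The shares of the GLI transcripts overlapped between the genotypes. Of the summed FPKM of the GLI genes, Gli3 made up 65.9 ± 4.04% in controls and 68.6 ± 1.70% in knockouts (SD, n = 3 each). Gli2 made up 22.2 ± 4.24% and 21.0 ± 1.33%, and Gli1 12.0 ± 0.621% and 10.4 ± 1.79%. The shares sum to 100% in each embryo and are not independent, and with 3 embryos a group a permutation test cannot go below 0.10, so no test is given. The lowest Gli1 share was that of knockout 3, at 8.38%, and the other 5 embryos were at 11.1 to 12.6%.

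**Figure D3:**
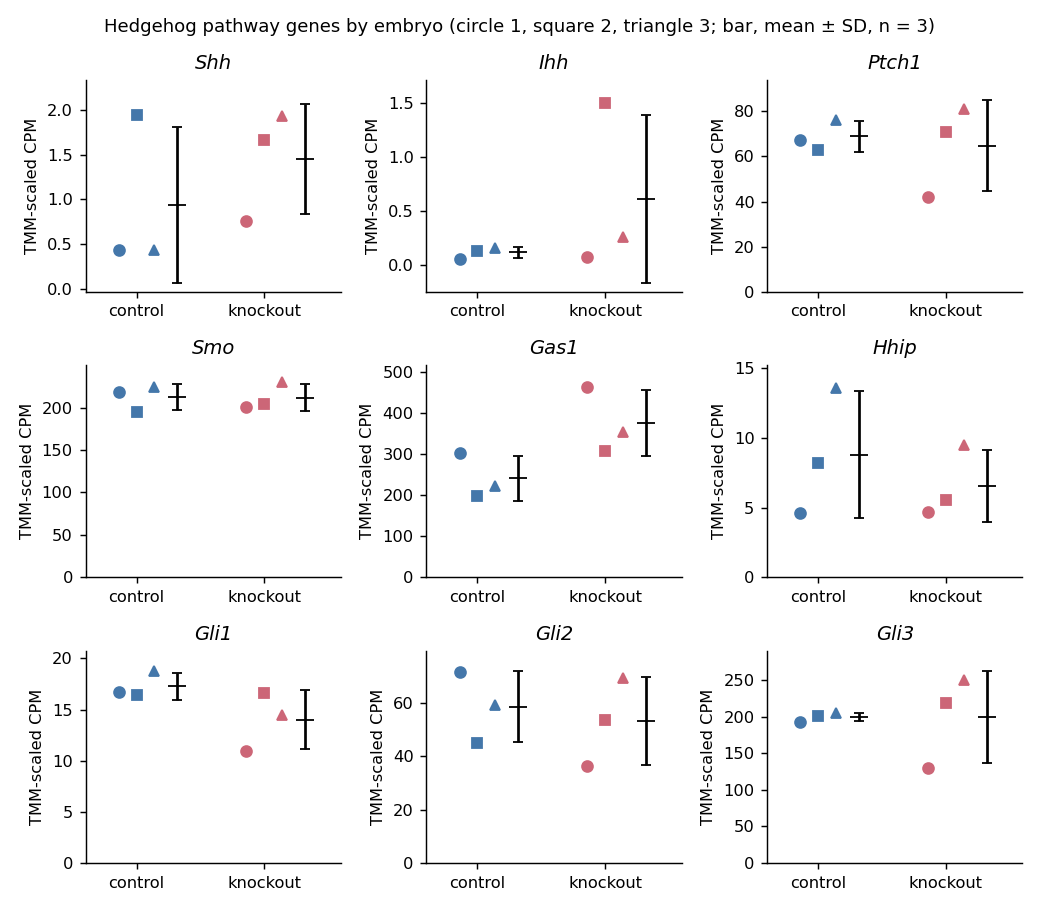
TMM-scaled CPM of the 9 genes in each embryo, with mean ± SD of 3 embryos beside the points. Gas1 is the gene whose knockouts (308 to 464 CPM) all lie above its controls (198 to 303 CPM), and knockout 1 (circle) is lowest for Ptch1, Gli1, Gli2 and Gli3.

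Knockout 1 was often the extreme embryo, among these genes as among all genes. It was the lowest embryo for 4 of the 8 tested genes (Ptch1, Gli1, Gli2 and Gli3) and the highest for Gas1. Of all genes tested, 28.8% were lowest and 29.1% highest there. The extremes of Shh, Smo and Hhip were other embryos. Its ratio of Gas1 to Ptch1 FPKM was 15.1, against 3.99 to 6.18 in the other 5 embryos. The ratio of Smo to Ptch1 FPKM was 5.65 in knockout 1 and 3.38 to 3.82 in the others. Knockout 3 was highest for Ptch1, Smo and Gli3, and knockout 2 was neither highest nor lowest for any of the 8. The 4 macrophage markers, all detected, were also highest in sum in knockout 1, at 82.6 CPM against 26.3 to 59.2 CPM in the other 5 embryos (controls 26.3 to 59.2, knockouts 54.8 to 82.6). Macrophages were not alone in this. The hair cell list also summed highest in knockout 1, at 135 CPM against 78.5 to 121 CPM, and the Schwann and glial list lowest, at 767 CPM. The relation of these lists to the Hedgehog genes was not tested.

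Xist was expressed by the 3 controls and, among knockouts, by knockout 1 (1098 CPM) and not by the others (under 1 CPM). A fit with Xist as a covariate therefore compares the genotypes mainly through knockout 1 against the controls. The genotype values of that fit rest largely on that embryo. With Xist as a covariate for sex, the log2 fold change of Ptch1 was -0.74 (adjusted p = 0.0874), Gli3 -0.67 (0.0808), Gli2 -0.71 (0.214) and Gli1 -0.68 (0.136), and Gas1 had 0.97 (0.0874), all by edgeR. In the same fit Hhip had -0.94 (0.442) and Smo -0.08 (0.762), and Shh turned from 0.60 to -0.46 (0.829). None of the 8 genes passed in that fit, where 0.034% of all genes did.

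**Figure D4:**
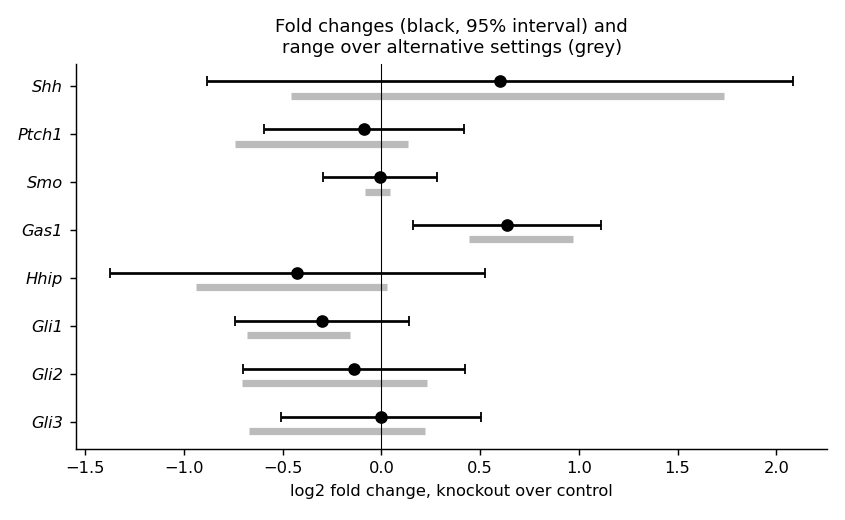
Log2 fold change, knockout over control, of the 8 tested genes with its 95% interval (black) and the range over the alternative settings (grey). The interval of Gas1 (0.16 to 1.11) lies above 0 before adjustment for multiple tests, and those of the other 7 genes include 0.

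Similarity of profile across the 6 embryos was described by the root mean squared difference of log2 CPM after subtraction of each gene's mean, among 12077 tested genes with a mean of at least 5 CPM (12078 for Shh). Nearest to Gli1 were the splicing factor gene Tra2a (0.03), Rnf170 (0.05) and Stard4 (0.05). Nearest to Ptch1 were Zdhhc21, Slmap and Aff4 (all 0.04). Gli3 was the 76th nearest gene to Ptch1 (0.08), whereas Gli1 ranked 1524th (0.19) and Hhip 9228th (0.46). Nearest to Shh, at larger distances, were Dlx2 (0.41), Arpp21 (0.47) and Vat1l (0.55), and each of these was low in control 1 (2.57, 3.82 and 2.01 CPM) and 8.94 to 13.0 CPM in control 2. These distances are a description, and Hhip varied more between embryos than Gli1 or Ptch1.

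Among 37 other genes of the pathway, 36 were tested and 0 passed edgeR's test, where 0.149% of all genes did. At an unadjusted p under 0.05, 3 were higher and 1 lower, against 4.77% of all genes in either direction. DESeq2 called 2 higher and 1 lower (Gpc3, Scube3 and Lrp2), against 1.04% of all genes. The median log2 fold change was 0.01, with 19 positive and 17 negative values. The largest differences were at the cell surface and in ligand release, and the genes acting between SMO and GLI and those of the cilium all lay between -0.29 and 0.22.

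Gpc3 encodes a glypican that binds Hedgehog ligands and restrains signalling. It was at 214, 180 and 222 CPM in controls and 352, 413 and 465 CPM in knockouts, without overlap. The difference was 1.00 ± 0.15 on the log2 scale (SE, adjusted p = 0.0751, edgeR), and it had an adjusted p of 1.8e-06 in DESeq2 and of 0.0335 with limma on log2(FPKM + 1). It also passed in edgeR without the count filter (adjusted p = 0.0487) and without both embryos numbered 1 (0.00503). In the latter setting sex and genotype cannot be told apart. With Xist as a covariate, a fit that rests largely on knockout 1, the log2 fold change of Gpc3 was 0.77. Sex was unbalanced between the genotypes in the fits without that covariate as well. Knockouts 2 and 3, which expressed Ddx3y, had more Gpc3 than knockout 1, which expressed Xist as the controls did. Knockout 1 in turn lay above all controls. The part of sex in the Gpc3 values was not tested. Over 15 alternatives the adjusted p of Gpc3 ranged up to 0.326. Lrp2, the endocytic receptor megalin that takes up SHH, was at 965, 524 and 604 CPM in controls and 263, 249 and 418 CPM in knockouts, again without overlap. Its log2 fold change was -1.17 ± 0.28 (SE, adjusted p = 0.277 in edgeR and 0.00183 in DESeq2, 0.00183 to 0.782 over 15 alternatives). The co-receptor genes Boc and Cdon had log2 fold changes of -0.10 and -0.19 (both adjusted p = 0.994, edgeR). Gas1 FPKM over the sum of Boc and Cdon FPKM was 1.29 ± 0.0847 in controls and 2.21 ± 0.589 in knockouts (SD, n = 3 each), without overlap (exact permutation p = 0.10, the smallest possible). This ratio reuses the Gas1 values of the same embryos, which did not overlap either, and is no separate support.

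Scube3 belongs to a family of secreted proteins, some of which help to release the lipid-bearing ligands. It was at 48.2, 34.2 and 45.6 CPM in controls and 72.8, 67.2 and 90.3 CPM in knockouts (log2 fold change 0.85 ± 0.17, SE, adjusted p = 0.187 in edgeR, 0.00481 in DESeq2). Without both embryos numbered 1, where sex and genotype cannot be told apart, it passed in edgeR (0.97 ± 0.17, SE, adjusted p = 0.0489). Its log2 fold change with Xist as a covariate was 0.78, and its adjusted p ranged up to 0.538 over 15 alternatives. Of the 7 genes of ligand making and release, 0 passed in edgeR and 6 had positive values, the exception being Disp2 at -0.79 ± 0.45 (SE). The third mammalian ligand gene, Dhh, had a log2 fold change of 0.05 ± 0.48 (SE, adjusted p = 0.994, edgeR).

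Of 11 genes between SMO and GLI 0 passed, with log2 fold changes from -0.29 for the receptor gene Gpr161 to 0.21, and a smallest adjusted p of 0.994 (edgeR). Of 5 cilium genes 0 passed, with values from -0.20 to 0.22, the latter for Tulp3, whose protein carries receptors into the cilium. Of 8 tested target genes 0 passed, with a median of 0.09. The transcription factor gene Osr1 had the largest value among these targets, at 20.6, 26.3 and 36.9 CPM in controls and 41.4, 45.3 and 49.5 CPM in knockouts (0.70 ± 0.21, SE, adjusted p = 0.549, edgeR). The cyclin gene Ccnd1 and Mycn, growth genes that Hedgehog signalling raises in other tissues, had 0.11 and 0.21 (both adjusted p = 0.994, edgeR). The ninth target, Foxf1 (listed as Foxf1a), had too few reads for the test.

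**Figure D5:**
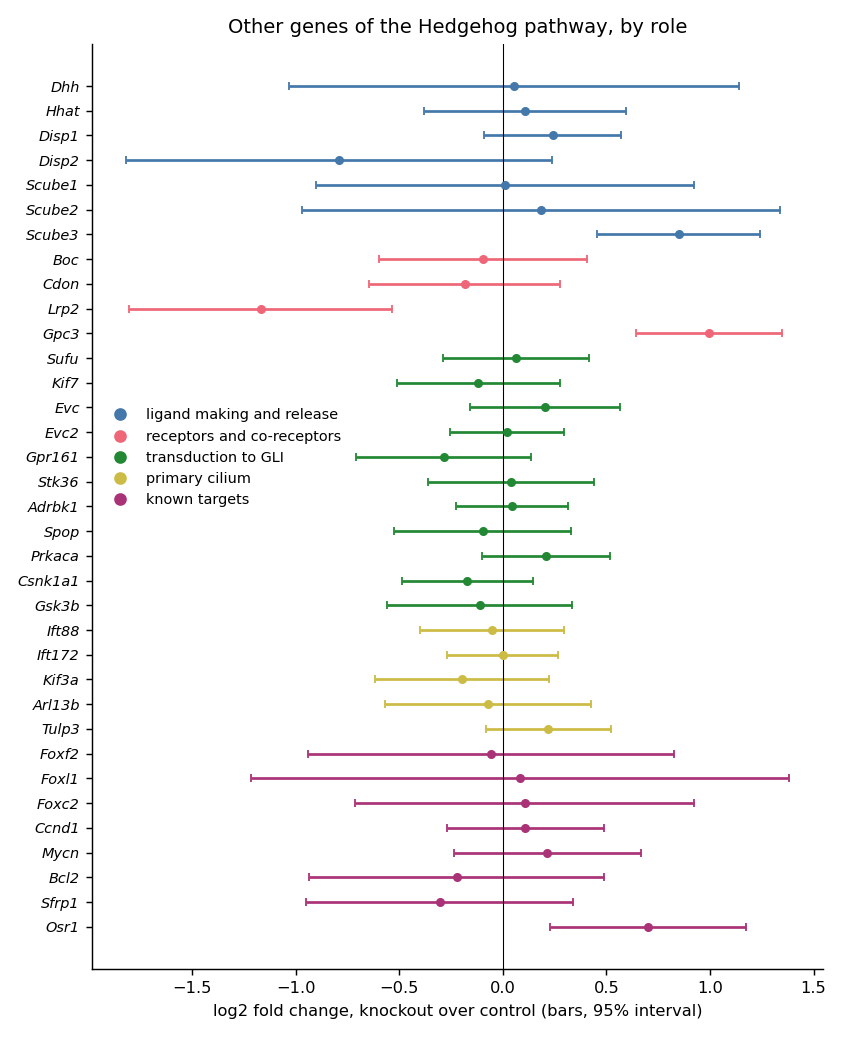
Log2 fold change, knockout over control, with its 95% interval for other tested genes of the pathway, coloured by role. Gpc3 (1.00), Scube3 (0.85) and Osr1 (0.70) lie to the right and Lrp2 (-1.17) to the left, with the genes between SMO and GLI from -0.29 to 0.21.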

How the data were processed

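RNA-seq of cochlear epithelium was analysed in 3 control and 3 knockout embryos (12 libraries). PolyA RNA of hand-dissected, collagenase-treated epithelium was made into directional libraries, per the labels' protocols. The deposited read counts are, per the file headers, reads per RefSeq transcript row with no normalisation. Per the file headers, FPKM were scaled by the authors for length and library size, and the deposited log2 fold changes, p-values and FDR come from the authors' edgeR comparison. The submitters' processing notes name edgeR and mm10. The aligner is not given in the sources used here, nor is the counter. Another 14 columns stayed out.

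The transcript row with most reads stood for its gene. Genes were kept with filterByExpr (minimum count 10), scaled by TMM and tested with edgeR 4.0.16 under R 4.3.3 (quasi-likelihood F test, Benjamini-Hochberg adjustment over 14717 genes, threshold 0.05). Standard errors were taken as the absolute log2 fold change divided by the root of the F statistic, and 95% intervals use the test's degrees of freedom. Groups of 3 embryos are compared with mean ± SD. Counting intervals cover counting error only. Alternatives were DESeq2 1.42.0 (test and size factors), other count filters, another transcript row, limma 3.58.1 on log2(FPKM + 1), a replicate block, Xist as a covariate and embryos left out. On counts simulated from the 6 embryos over 14583 genes, the test found 54 of 100 genes with a 2-fold change and 93 of 100 with a 4-fold change, and made 14 false calls.

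All 9 genes, the other pathway genes (by role: those past the threshold, and those with the smallest p or largest change), the marker lists, and the 3 most similar genes for Shh, Gli1 and Ptch1 were named by rule. The values of 1 gene of the pathway list, which stays in the list's counts, are not reported here. Genes and lists were chosen with earlier results of these data known. Positions and promoters come from RefSeq (GRCm38, which is mm10), where 7 of the 9 genes matched the promoter table.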

Additional observations from a re-analysis of the deposited data

How the results depend on the processing

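The Hedgehog genes tested (8 in most alternatives, 7 with the filter at 30 reads, and all 9 without the count filter and in DESeq2) had 0 calls in 14 of 15 alternatives, among them each embryo left out (0 to 0), and 1 (Gas1) without both embryos numbered 1. The alternative with another transcript row reused the same reads for these genes, which have 1 row each. Without control 3 and without knockout 2, 0 of all genes were called, so a count of 0 there says nothing of any pathway gene. The 22 genes called overall became 6 with the replicate block, 5 with Xist as a covariate, 166 in DESeq2 and 159 without both embryos numbered 1, and 0 to 30 with 1 embryo left out. For the other pathway genes the count of 0 became 1 without the count filter, 1 with limma on FPKM, 3 in DESeq2 and 2 without both embryos numbered 1, and was 0 with each embryo left out. The causes were not tested. Without knockout 1, whether alone or with control 1 left out too, sex and genotype cannot be told apart. With the replicate block, Gas1 had an adjusted p of 0.252 and 0 of the Hedgehog genes and of the other pathway genes were called. Same-numbered embryos of both genotypes share a code in the labels whose meaning is not given, so that a pairing was not assumed. Their deviations from the group means correlated at 0.077, 0.177 and 0.029, with control 1 closer to knockout 3 (0.105). Ihh rests on 7 control and 33 knockout reads and Shh on 58 and 70. On simulated counts the test found 54 of 100 genes with a 2-fold change, and other depths were not simulated.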
